A study of Homo sapiens with 32 samples.

Results

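The genes described here are the chemokines and interleukins that Ewing sarcoma cells expressed in RNA sequencing of lines with and without the cohesin subunits STAG2 and STAG1 or the Polycomb subunits EZH2 and SUZ12. They were chosen by name and by count. The symbol had to be CXCL or CCL with a number, CX3CL1, or IL with a number followed by at most 1 letter and 1 digit, and at least 2 of the 26 count libraries had to hold at least 10 counts. The name matched 88 of the 28278 symbols in the count tables, and 30 genes had enough counts. These were 12 chemokines, 12 interleukins, 5 interleukin receptor subunits (IL1R1, IL4R, IL6R, IL7R and IL21R) and 1 enzyme, IL4I1, an amino acid oxidase named for its induction by IL-4. Of the 58 genes left out, 21 had 0 counts in every library. The nearest of the rest were CCL26, CCL5, CXCL13 and CXCL2, which reached 10 counts in 1 library each with a highest count of 12, 21, 21 and 13. The nearest on the inside were CXCL3, CXCL5, IL23A and IL34, which reached it in 2 libraries each with a highest count of 25, 98, 15 and 22.

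Chemokines are small secreted proteins that attract leukocytes through G protein-coupled receptors, and interleukins are secreted proteins that signal between cells through paired receptor chains. IL4R is the alpha chain of the receptors for IL-4 and IL-13 and signals through JAK kinases and STAT6. CXCL16 is made as a membrane-bound chemokine that can be shed, and its receptor is CXCR6. In cells other than leukocytes, many of these genes are kept silent or low and are induced through NF-kappaB and AP-1, and some carry the histone mark H3K27me3 that the Polycomb repressive complex 2 (PRC2) deposits. EZH2 is the enzyme of that complex and SUZ12 one of its core subunits. Cohesin is the ring complex that folds chromatin into loops, and it carries either STAG1 or STAG2.

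A673 is a human Ewing sarcoma line driven by the EWS::FLI1 fusion. Experiment 1 compared A673 cells proficient for STAG2 (2 libraries of a clone with inducible Cas9 and 1 of the parental line) with 2 STAG2 KO libraries. Experiment 2 had the same kinds of control (2 and 1 libraries) beside 3 STAG2 KO, 3 EZH2 KO and 3 SUZ12 KO clones, and experiment 3 had 1 parental and 1 inducible Cas9 library beside 3 STAG1 KO libraries. All KO clones were derived by CRISPR editing from the clone with inducible Cas9 at AAVS1, so every KO library and the Cas9 control carry that transgene and the parental line does not. In experiment 4, A673 cells were mock transfected (labelled WT) or transfected with an siRNA against STAG2, with 3 libraries each. The lines SK-N-MC and A4573 had 1 library without and 1 with STAG2. SK-N-MC expresses STAG2 and was edited to lose it, and A4573 lacks it and was edited to restore it (STAG2 KI). In both pairs each library carries inducible Cas9. The KO column names of experiment 1 (5 and 24) and experiment 3 (1, 5 and 7) could not be matched to the numbered clones of the labels, so these libraries are called by their column numbers.

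The A673 clone libraries held about 15734600 to 20663700 counts, those of SK-N-MC and A4573 held about 29322500 to 32261200 counts, and the knockdown libraries held about 6852340 to 8184630 reads recovered from the deposited values. Values below, unless stated, are CPM, the counts of a gene scaled to a common library size. By these totals, before the TMM scaling of library size, a level of 1 CPM was 15.7 to 20.7 counts in A673. Most of the chemokines and interleukins lay near or under that level. The targeted gene was lower in its KO group for STAG2 (85.0 against 292 CPM), EZH2 (43.4 against 174) and SUZ12 (15.9 against 60.2), and was not called for STAG1 (log2 fold change -0.80, edgeR adjusted p = 0.376). STAG2 KO library 24 of experiment 1 kept 188 CPM of STAG2, and STAG1 KO library 1 had 61.8 CPM of STAG1, within its controls of 57.1 and 68.2. In the knockdown, STAG2 fell by 2.72 on the log2 scale. The SK-N-MC STAG2 KO library kept 186 CPM of STAG2 RNA against 294 in its partner. A4573 held 33.5 CPM without STAG2 and 87.2 in the STAG2 KI. EZH2 also differed within the pairs, at 117.5 CPM without and 43.0 with STAG2 in A4573. In SK-N-MC it stood at 248.7 without and 364.5 with STAG2. Of 10 Ewing sarcoma markers, 9 were present in every A673 count library and CD99 was listed at 0 in all of them. In the A673 knockdown libraries all 10, CD99 included, were high enough to be tested. The 0 in the count libraries is therefore not read as absence of CD99 from A673. Of 14 leukocyte markers, CD2, MS4A1 and TYROBP were at 0 throughout the count libraries, and others were present. In the A673 clone libraries CD68 stood at 1.74 to 10.1 CPM, and ITGAM, CSF1R and CD14 reached 19.5, 1.38 and 1.17 CPM. The 5 endothelial markers summed to 0.446 to 7.33 CPM. The 2 Cas9 clone libraries of experiment 1 come from 1 clone and were nearly alike (mean chi-square 1.33 per gene, against 9.41 to 140 for other pairs). STAG2 KO clone 5 of experiment 2 stood apart from clones 3 and 2 (113 and 140, against 25.7 between those), so results that rest on it are given with and without it. The clones are derived from 1 line each and the RNA is bulk, so fewer cells expressing a gene and less RNA per cell cannot be told apart, and each p-value measures only the spread between these libraries.

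In the 8 A673 control libraries, 11 of the 30 genes averaged at least 1 CPM: IL4R, CXCL16, CCL2, CXCL14, IL21R, IL6R, IL32, IL7R, IL17D, IL16 and IL1A. Per kilobase of exon, IL4R ranked first at 6.12 CPM, followed by CCL2 at 2.80, CXCL16 at 2.62 and CXCL14 at 1.47. CCL2 attracts monocytes and CXCL14 is a chemokine common in epithelia. IL4R, IL6R and IL17D had at least 10 counts in each of the 26 count libraries. IL6R is the IL-6 binding chain, and IL17D is a member of the IL-17 family. CXCL3, CXCL5, CXCL11, IL1R1, IL10, IL23A, IL24 and IL34, 8 in all, were too low for the test in every comparison, and the other 22 were tested in at least 1.

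The loss of STAG2 in A673 was read against STAG2-proficient cells over experiments 1 and 2 together. IL4R fell and was the only one of the 11 genes tested that changed. None rose, and 4 of the 11 had an unadjusted p under 0.05. Over all 13574 genes tested by edgeR's quasi-likelihood test with Benjamini-Hochberg adjustment, 12.4% were called (6.67% higher and 5.76% lower), so 1 called gene of 11 is near that background. The median log2 fold change of the 11 was 0.14, beside 0.04 over all genes. DESeq2 called 7 of the 23 to which it gave an adjusted p, beside 16.6% of all such genes. The summed leukocyte markers were 3.73 to 7.64 CPM in the KO and 2.88 to 6.40 in the control libraries.

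IL4R lies at chr16:27313668-27364778 on the plus strand (GRCh38) with 5884 bases of exon. In experiment 1 it stood at 37.0, 39.2 and 26.0 CPM in the proficient libraries (2 of the Cas9 clone, then the parental line) and at 3.20 and 3.0 CPM in the STAG2 KO libraries. In experiment 2 it stood at 41.3, 36.5 and 25.8 CPM in the proficient libraries and at 6.10, 8.19 and 15.9 CPM in STAG2 KO clones 3, 5 and 2. The groups did not overlap in either experiment: the highest KO library, clone 2, was below the lowest control, which was the parental line. The mean was 7.28 ± 5.27 CPM (SD, n = 5) against 34.3 ± 6.73 (SD, n = 6). The log2 fold change was -2.48 ± 0.38 (SE), with an adjusted p of 0.00197 by edgeR. It was -3.49 (edgeR adjusted p = 0.00284) within experiment 1 and -1.78 (adjusted p = 0.00658) within experiment 2. In each experiment 2 of the proficient libraries came from the same Cas9 clone, so these p-values can understate the spread between clones.

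**Figure D1:**
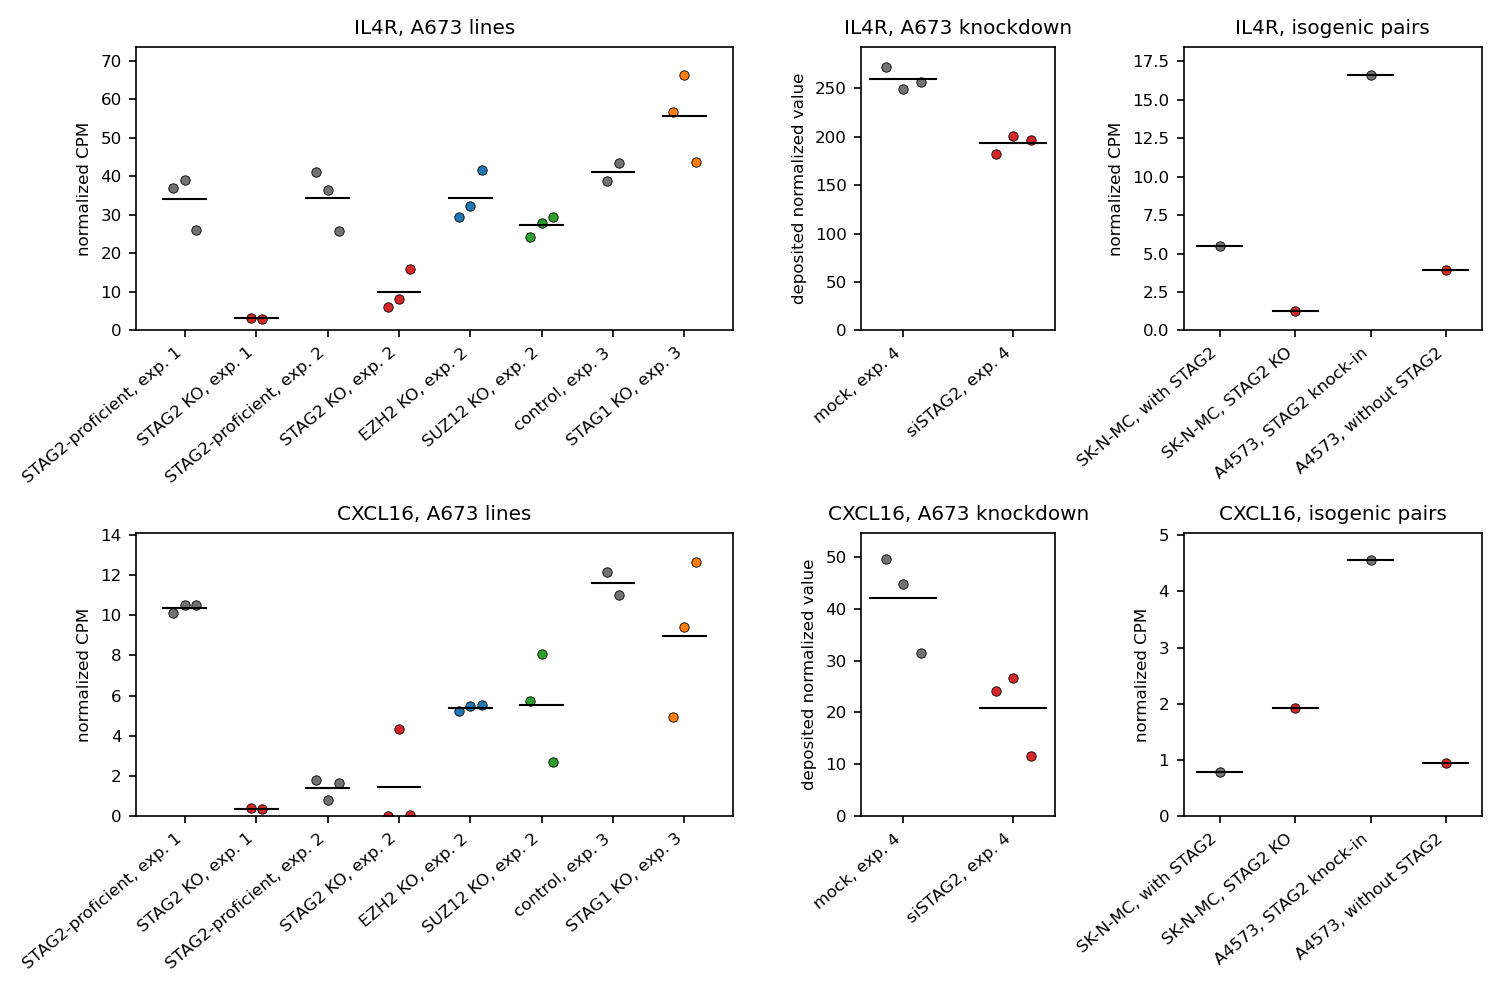
Level of IL4R and CXCL16 in each library, by group, for the A673 clones (CPM), the knockdown (normalized reads) and the isogenic pairs (CPM). Each point is 1 library and each bar a group mean. For IL4R all 5 STAG2 KO libraries lie at or under 15.9 CPM and the 6 proficient libraries at or over 25.8, whereas for CXCL16 clone 5 of experiment 2, at 4.36 CPM, lies among the proficient libraries.

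CXCL16 (chromosome 17, 4733533 to 4739928, minus strand) did not pass the test over both experiments, at a log2 fold change of -1.70 ± 1.38 (SE; edgeR adjusted p = 0.483). In experiment 1 the proficient libraries held 10.1, 10.5 and 10.5 CPM and the KO libraries 0.415 and 0.346. In experiment 2 the proficient libraries held 1.80, 0.80 and 1.67 CPM and KO clones 3, 5 and 2 held 0, 4.36 and 0.0557. The controls of the 2 experiments thus differed in level, and clone 5 was above every control of its experiment. CXCL16 fell by 4.78 on the log2 scale in experiment 1 alone (edgeR adjusted p = 0.00247) and stood at 0.06 in experiment 2 alone (adjusted p = 0.984). Exons of CXCL16 overlap those of MED11 and ZMYND15 on the other strand, and the libraries do not keep strand. MED11 had a log2 fold change of -0.38 in STAG2 KO (edgeR adjusted p = 0.167). IL4R overlaps an unnamed gene, ENSG00000274092, in the same way, which held 0 to 1.11 normalized reads in the knockdown libraries and has no row in the count tables.

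Clone 5 of experiment 2 stood apart from the other STAG2 KO libraries at several of these genes. It held 5.90 CPM of IL33, an alarmin of the IL-1 family, against 0 and 0.0557 in the clones beside it. It held 6.17 CPM of IL21R against 0.265 and 0 in those clones. It also held 4.89 CPM of IL32 against 0.371 and 0.947, and 1.38 CPM of CXCL10, an interferon-induced chemokine, against 0 and 0. Without clone 5, 5 of 11 tested genes were called by edgeR, beside 29.6% of 13670 genes. CXCL16 then fell by 4.90 on the log2 scale (adjusted p = 2.17e-05), IL21R by 2.82 (adjusted p = 0.0232) and IL4R fell by 2.47 (adjusted p = 0.00144). IL7R, the alpha chain of the IL-7 receptor, rose by 1.75 (adjusted p = 0.0142) and CXCL8, the neutrophil chemokine also called IL-8, by 1.20 (adjusted p = 0.0394).

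With all libraries, CXCL8 had 0.578, 0.525 and 1.04 CPM in the proficient and 2.13 and 1.10 CPM in the STAG2 KO libraries of experiment 1. In experiment 2 it had 0.709, 0.431 and 1.83 CPM in the proficient and 2.12, 3.03 and 2.73 CPM in the KO clones. KO libraries were above the controls within each experiment, and the groups overlapped only across experiments (log2 fold change 1.29 ± 0.39, SE; edgeR adjusted p = 0.0531). IL7R overlapped between the groups, at 0.262 to 6.13 CPM in the proficient (median 1.93) and 2.29 to 9.64 CPM in the KO libraries (median 5.02), with a log2 fold change of 1.48 and an adjusted p of 0.0999. CXCL14 was at 0 in all 5 KO libraries and at 0.0545 to 2.62 CPM in the proficient ones. Its proficient mean of 1.0 CPM puts it at least 5.98-fold lower in the KO group, against a floor of 3 counts per library. That mean rests on the 2 Cas9 clone libraries of experiment 1 (2.6 and 2.62 CPM). In experiment 2 the proficient mean of 0.157 CPM was under the floor, so no bound holds there. The exons of CXCL14 overlap those of SLC25A48 on the other strand, which had at most 3 counts in any A673 library. IL16, a leukocyte attractant, had a log2 fold change of -1.46 (edgeR adjusted p = 0.166). Its exons overlap those of STARD5 on the other strand, and STARD5 fell by 2.94 on the log2 scale in STAG2 KO (adjusted p = 0.00363).

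CCL2 was called in experiment 1 taken alone and not in experiment 2. In experiment 1 it stood at 2.14, 2.68 and 2.03 CPM in the proficient and at 13.6 and 4.21 in the STAG2 KO libraries, which did not overlap (experiment 1 alone, log2 fold change 1.93, edgeR adjusted p = 0.0416). In experiment 2 the proficient libraries held 11.8, 10.9 and 4.20 CPM and the KO clones 6.53, 3.24 and 16.5, which overlapped. Experiment 1 alone called 4 of 14 tested genes (CCL2 higher, and CXCL14, CXCL16 and IL4R lower) beside 25.9% of all genes, and experiment 2 alone called IL4R of 21 beside 8.63%. Of the 3 controls of experiment 1, 2 were the nearly alike libraries of 1 clone. The p-values of experiment 1 alone, here and above, can therefore understate the spread between clones. The fit over both experiments includes these libraries and shares this limit. In experiment 2 as well, 2 of the 3 controls were libraries of the Cas9 clone (mean chi-square 9.41). Summing the 2 libraries of experiment 1 was done only over both experiments, where it took the calls over all genes from 1687 to 1154.

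The knockdown lowered STAG2 in A673 cells without editing. IL4R and CXCL16 fell, and they were the 2 called of the 7 genes tested. Of these, CXCL16 had not passed the test in STAG2 KO over both experiments. The values are reads divided by size factors, tested by limma on log2(value + 1) for genes with a mean of at least 10. Of 12060 genes 20.5% were called (9.54% higher, 11.0% lower). IL4R stood at 272, 257 and 249 in mock libraries 1, 2 and 3 and at 201, 182 and 197 in siSTAG2 libraries 1, 2 and 3. The groups did not overlap, and the log2 fold change was -0.42 ± 0.10 (SE; limma adjusted p = 0.00210). CXCL16 stood at 49.6, 31.5 and 44.8 in the mock and at 26.6, 24.1 and 11.6 in the siSTAG2 libraries. These did not overlap either, and the log2 fold change was -1.04 ± 0.28 (SE; limma adjusted p = 0.00910). Leaving out mock library 1 or siSTAG2 library 3 took the adjusted p of CXCL16 to 0.0533 and 0.0791.

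Of the other 5 genes tested in the knockdown, IL17D and IL7R had an unadjusted p under 0.05 with a positive fold change. IL17D stood at 27.6, 21.7 and 15.6 in the mock and at 30.0, 35.2 and 36.7 in the siSTAG2 libraries, without overlap (log2 fold change 0.66, limma adjusted p = 0.0692). IL7R had a log2 fold change of 0.82 with overlapping groups (limma adjusted p = 0.0955). CCL2, at 21.4 in both groups on average, had a log2 fold change of 0.01 (limma adjusted p = 0.989). The median over the 7 genes was 0.01, as over all genes. MED11, which overlaps CXCL16, had a log2 fold change of -0.19 (limma adjusted p = 0.273). CXCL14 was too low to be tested. It stood at 6.67, 12.8 and 11.5 in the mock and at 2.22, 0.927 and 1.93 in the siSTAG2 libraries, without overlap. CXCL3 and IL23A, also too low to be tested, were higher in every siSTAG2 library than in any mock library.

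STAG1 KO addressed whether the other STAG subunit acts on the same genes. No gene of the 15 tested passed edgeR's test, while 7 had an unadjusted p under 0.05 and DESeq2 called 5 of 19 (CX3CL1, CXCL8 and IL7R higher, CXCL10 and CXCL14 lower), beside 13.1% of all genes. Over 14373 genes 5.27% were called by edgeR (2.77% higher, 2.50% lower). The median of the 15 was 0.67 and that of all genes -0.0028 on the log2 scale. IL4R stood at 38.7 and 43.6 CPM in the parental and Cas9 controls and at 56.9, 66.3 and 43.7 CPM in STAG1 KO libraries 1, 5 and 7. The lowest KO library was thus just above the higher control, and the fold change of 0.42 ± 0.18 (SE, log2) did not pass (edgeR adjusted p = 0.225). CXCL16 stood at 12.16 and 11.02 CPM in the parental and Cas9 controls and at 4.92, 9.39 and 12.65 CPM in the KO libraries. Those groups overlapped (log2 fold change -0.38, edgeR adjusted p = 0.589).

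CX3CL1 is a membrane-bound chemokine also called fractalkine. It stood at 0.574 and 0.484 CPM in the controls and at 1.85, 1.96 and 3.35 CPM in the STAG1 KO libraries. The groups did not overlap, and edgeR's adjusted p was 0.0501 (log2 fold change 2.15 ± 0.44, SE). IL7R stood at 0.431 and 0.430 CPM in the controls and at 1.92, 2.07 and 1.17 CPM in the KO libraries, also without overlap (1.96 ± 0.43 log2, SE; edgeR adjusted p = 0.0579). CXCL8 stood at 0.335 and 0.161 CPM against 1.09, 0.982 and 1.68 CPM, likewise without overlap (2.27 ± 0.53 log2, SE; edgeR adjusted p = 0.0653). CXCL14 stood at 9.57 and 7.69 CPM in the controls and at 0.256, 2.73 and 1.37 CPM in the KO libraries. All KO values of CXCL14 were lower (edgeR adjusted p = 0.0932). CXCL10 was at 0 in the 3 KO libraries and at 1.92 and 0.323 CPM in the controls, at least 6.61-fold lower against the floor of 3 counts per library, and at least 1.91-fold lower without the parental control. Without STAG1 KO library 1, which kept STAG1 at the control level, CX3CL1 (edgeR adjusted p = 0.0385) and CXCL14 were called of 14 tested, beside 9.2% of all genes. The summed leukocyte markers were 9.60 to 16.9 CPM in STAG1 KO against 2.88 to 6.40 in all A673 controls, and their part in these values was not tested.

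Whether STAG2 KO and STAG1 KO differed in their effects was tested directly, each effect against the controls of its own experiments. IL4R was the 1 gene called of the 18 tested, lower under STAG2 KO relative to STAG1 KO by 2.93 ± 0.58 on the log2 scale (SE; edgeR adjusted p = 0.00891). In all genes 6.11% of 14696 were called (2.36% higher and 3.75% lower), and the median was -0.57 over the 18 and 0.0019 over all. The call rests on both controls of experiment 3: without the parental library the adjusted p was 0.0952, and without the Cas9 library it was 0.0611. Of the others, 5 had an unadjusted p under 0.05: CCL20 (2.88) and CXCL10 (7.56) with a positive difference, and CX3CL1 (-3.06), CXCL14 (-4.25) and IL16 (-2.61) with a negative one. CXCL10 and CXCL14 include groups with libraries at 0, so the size of their fitted differences depends on the prior count.

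SK-N-MC and A4573 each gave 1 library per condition, so no test was possible and the values compare these libraries only. IL4R was lower without STAG2 in both lines. In SK-N-MC it had 38 counts (1.26 CPM) in the STAG2 KO and 181 counts (5.52 CPM) in the library with STAG2, a difference of -2.08 in log2 CPM with a prior count of 2. In A4573 it had 121 counts (3.94 CPM) without STAG2 and 521 counts (16.6 CPM) in the STAG2 KI, a difference of -2.04. CXCL16 differed in opposite directions, with 58 counts without and 26 with STAG2 in SK-N-MC (1.21) and 29 without and 143 with STAG2 in A4573 (-2.17).

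Among the genes with at least 10 counts over both SK-N-MC libraries, 6 of 23 were at least 2-fold higher without STAG2, beside 10.3% of 16413 genes, and 8 were at least 2-fold lower, beside 11.3%. The lower genes were CCL2, CXCL11, CXCL14, IL1A, IL1B, IL4R, IL6R and IL7R. CCL2 had 2 counts without and 80 with STAG2, a log2 ratio of -5.20 with an exact 95% interval of -8.27 to -3.30 that covers counting error only. IL1B, a proinflammatory cytokine of the inflammasome pathway, had 6 against 53 counts (-2.68). IL6R had 46 against 165 counts (-1.68) and IL7R 14 against 60 (-1.84). IL1A, at 0 against 13 counts, was at least 3.99-fold lower without STAG2. The higher genes were CX3CL1, CXCL16, IL10, IL12A, IL24 and IL32. IL32, an intracellular and secreted inducer of other cytokines, had 504 against 163 counts (1.74), and IL10, an anti-inflammatory cytokine, 34 against 9 (1.82). The summed level of the 14 leukocyte markers was 62.5 CPM in the SK-N-MC STAG2 KO library and 8.24 in its partner. PTPRC alone, at 1776 counts, made up most of the sum in the KO library. Only 3 of the markers had at least 10 counts there, against 7 in the partner, so the markers did not rise as a group. The part of PTPRC in the values above was not tested.

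In the A4573 pair, 1 of 16 genes was at least 2-fold higher without STAG2, beside 7.68% of 16124 genes, and 6 were at least 2-fold lower, beside 14.2%. IL21R had 44 counts without and 384 with STAG2 (-3.02), and IL12A, a subunit of IL-12 and IL-35, had 96 against 494 (-2.29). IL11, an IL-6 family cytokine, had 21 against 70 counts (-1.60). CXCL11 had 1 count against 23, a log2 ratio of -4.47 with an exact 95% interval of -9.83 to -1.85. The higher gene was CXCL12, the ligand of CXCR4, at 234 against 88 counts (1.44). CXCL5, a neutrophil chemokine, reached 98 and 96 counts in this line and at most 1 in every other library. CXCL11 and IL4R were thus over 2-fold lower without STAG2 in both lines, whereas IL12A and CXCL16 differed in opposite directions. The median difference was -0.35 over the 23 genes in SK-N-MC and -0.73 over the 16 in A4573, beside -0.0012 and -0.0052 over all genes.

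**Figure D2:**
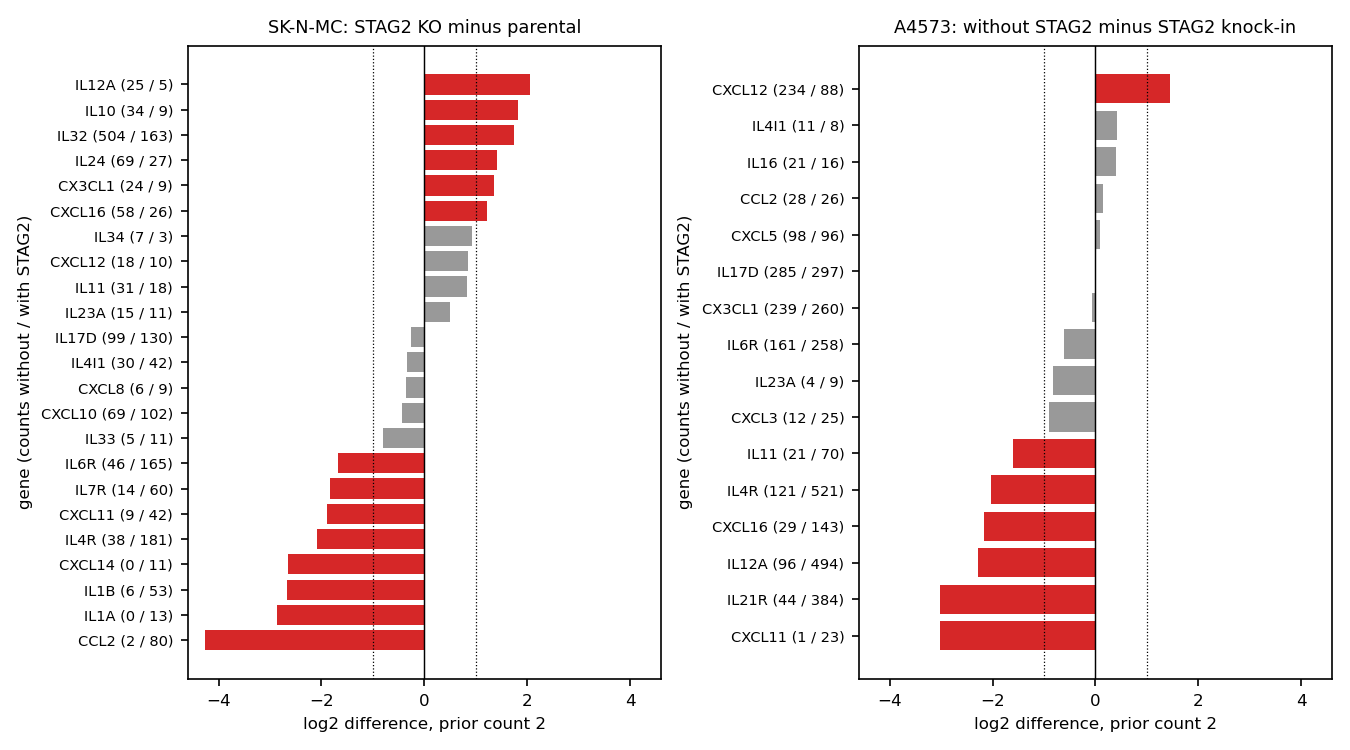
Difference in log2 CPM (library without STAG2 minus library with STAG2, prior count 2) for genes with 10 or more counts over both libraries, in SK-N-MC (23 genes) and A4573 (16 genes). Each bar is 1 gene from 1 library per condition and the dotted lines mark 2-fold. IL4R lies near -2 in both lines, and CXCL16 lies at 1.21 in SK-N-MC and at -2.17 in A4573.

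PRC2 loss was examined in the EZH2 KO and SUZ12 KO clones of experiment 2. In EZH2 KO 4 genes rose (CCL28, CX3CL1, CXCL8 and IL11) and 1 fell (IL17D) of 21 tested. In SUZ12 KO 3 rose (CCL28, CX3CL1 and IL11) and 2 fell (CCL2 and IL17D) of 21 tested. The background over 15130 genes by edgeR was 15.7% called in EZH2 KO (12% higher, 3.69% lower) and 20.6% in SUZ12 KO (14.7% higher, 5.87% lower), so the 5 called of 21 in each are near the share of all genes. Both comparisons use the same 3 controls, which are also those of STAG2 KO in experiment 2, so a call in both is not independent. Of these controls 2 are libraries of 1 Cas9 clone, so the p-values can understate the spread between clones. The median log2 fold change of the tested genes was 1.94 in EZH2 KO (0.04 over all genes) and 1.67 in SUZ12 KO (0.01 over all genes). That median is a description only, since a gene silent in the controls entered the test only if it was high in a KO group. Leaving out STAG2 KO clone 5, which enters these fits only through the shared spread and the filter on low counts, raised the called genes to 10 of 23 in each KO, beside 25.1% of all genes in EZH2 KO and 31.1% in SUZ12 KO.

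The sequences before the transcripts of 3 of the genes that rose are shown to give the letters before an annotated start. They were read from the RefSeq promoter windows (GRCh38.p14) of up to 250 bases upstream, 5′ to 3′ along the gene's strand, and capitals mark a match to TGANTCA (the AP-1 consensus) or to GGAAGGAA on either strand (a pair of the GGAA units that EWS::FLI1 binds in repeats). The CXCL8 sequence is the 200 bases at chr4:73740319-73740518, the CCL28 sequence is the reverse strand of chr5:43412392-43412641, and the IL11 sequence is the reverse strand of chr19:55370464-55370713.
CXCL8: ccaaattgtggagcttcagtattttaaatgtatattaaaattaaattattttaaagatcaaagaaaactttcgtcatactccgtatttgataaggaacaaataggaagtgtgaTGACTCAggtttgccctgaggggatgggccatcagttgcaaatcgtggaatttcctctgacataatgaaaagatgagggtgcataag
CCL28: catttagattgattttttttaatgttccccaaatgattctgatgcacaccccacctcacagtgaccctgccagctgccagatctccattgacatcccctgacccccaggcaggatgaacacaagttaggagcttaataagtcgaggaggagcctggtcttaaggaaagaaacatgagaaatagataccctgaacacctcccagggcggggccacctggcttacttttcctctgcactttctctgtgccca
IL11: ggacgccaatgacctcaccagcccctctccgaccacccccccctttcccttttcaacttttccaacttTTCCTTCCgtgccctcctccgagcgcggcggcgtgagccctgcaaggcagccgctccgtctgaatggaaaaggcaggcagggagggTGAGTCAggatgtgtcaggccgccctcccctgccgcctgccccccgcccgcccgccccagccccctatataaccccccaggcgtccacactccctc
The CXCL8 sequence holds 3 CpG dinucleotides and 1 TGANTCA match, and that of CCL28 holds 2 CpG and neither motif. A second CCL28 window, before an internal start at chr5:43397138-43397387 and partly within CCL28 exons, holds 20 CpG and is not printed. The IL11 sequence holds 16 CpG, a TGANTCA match and GGAAGGAA on the reverse strand. Windows were found for 26 of the 30 genes (39 windows). TGANTCA occurred in 23.1% of these windows and in 6.57% of all 35116, the NF-kappaB consensus in 25.6% and 5.21%, TATAAA in 20.5% and 10.7%, and GGAAGGAA in 7.69% and 3.06%. A match here is a description of the letters and not of binding. The median number of CpG per window was 5 for these genes and 11 for all.

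CCL28, an epithelial chemokine for lymphocytes (chromosome 5, 43376645 to 43412391, minus strand), stood at 0, 0.0615 and 0 CPM in the controls. It stood at 0.435, 0.498 and 0.859 CPM in EZH2 KO clones 1, 2 and 3 and at 0.868, 1.52 and 1.41 CPM in SUZ12 KO clones 1, 2 and 3. Every KO clone was above every control of experiment 2. The log2 fold changes were 4.59 ± 0.81 in EZH2 KO (SE; edgeR adjusted p = 0.00309) and 5.66 ± 0.78 in SUZ12 KO (adjusted p = 0.000591). Only 1 control library held any count of it in that experiment, so the fold depends on the prior count. The control libraries of experiments 1 and 3 had 0.289 to 0.525 CPM, a range that holds the values of EZH2 KO clones 1 and 2.

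CX3CL1 (chromosome 16, 57372477 to 57385044) stood at 0.436, 0.246 and 0.161 CPM in the controls, at 1.30, 1.22 and 2.24 CPM in EZH2 KO and at 1.88, 1.39 and 1.73 CPM in SUZ12 KO. The KO clones were all above the controls, with log2 fold changes of 2.49 ± 0.71 (SE; edgeR adjusted p = 0.0345) and 2.56 ± 0.71 (adjusted p = 0.0242). IL11 (chromosome 19, 55364382 to 55370463, minus strand) stood at 0.545, 0.246 and 0.323 CPM in the controls, at 1.26, 1.27 and 1.43 CPM in EZH2 KO and at 1.11, 1.70 and 0.704 CPM in SUZ12 KO. There was again no overlap, with log2 fold changes of 1.83 ± 0.51 (SE; edgeR adjusted p = 0.0331) and 1.66 ± 0.51 (adjusted p = 0.0389). Both genes lost the call in both comparisons when the Cas9 clone was the only control, at edgeR adjusted p from 0.0966 to 0.128. Over 12 fits that each left out 1 library, CX3CL1 was called in 5 for EZH2 KO and 8 for SUZ12 KO, and IL11 in 5 and 4. The calls of both genes in EZH2 KO were lost without any 1 of the 3 controls, of the 3 EZH2 KO clones or of SUZ12 KO clone 1. In SUZ12 KO those of both were lost without any 1 of the controls or SUZ12 KO clone 1, and that of IL11 also without SUZ12 KO clone 2 or any 1 of the EZH2 KO clones.

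CXCL8 (chromosome 4, 73740519 to 73743716) stood at 0.709, 0.431 and 1.83 CPM in the controls, at 7.19, 11.9 and 5.15 CPM in EZH2 KO and at 2.41, 2.82 and 2.87 CPM in SUZ12 KO. The EZH2 KO clones were the highest of the A673 libraries, and the SUZ12 KO clones lay between them and the controls. The fold change was 3.04 ± 0.51 log2 in EZH2 KO (SE; edgeR adjusted p = 0.00244) and 1.46 in SUZ12 KO (adjusted p = 0.0571). The difference between EZH2 KO and SUZ12 KO was 1.58 on the log2 scale and did not pass the test (edgeR adjusted p = 0.999).

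IL17D fell in both KO groups. Its exons overlap those of an unnamed gene on the other strand, ENSG00000278291, which has no row in the count tables and held 35.3 to 49.9 normalized reads in the knockdown libraries, where IL17D held 15.6 to 36.7. It stood at 3.38, 4.06 and 2.96 CPM in the controls, at 0.724, 0.940 and 1.58 CPM in EZH2 KO and at 0.917, 0.938 and 1.41 CPM in SUZ12 KO, without overlap. The log2 fold change was -1.65 ± 0.39 in each (SE; edgeR adjusted p = 0.0154 in EZH2 KO and 0.0119 in SUZ12 KO). Leaving out control library 2 or EZH2 KO clone 1 or 2 took the first p to at most 0.0604, and leaving out SUZ12 KO clone 1 or 2 took the second to at most 0.0507. CCL2 (chromosome 17, 34255274 to 34257208) stood at 11.8, 10.9 and 4.20 CPM in the controls, at 1.93, 6.19 and 0.525 CPM in EZH2 KO and at 0.145, 0.626 and 0.650 CPM in SUZ12 KO. The SUZ12 KO clones lay under every control (-4.21 ± 0.95 log2, SE; edgeR adjusted p = 0.00907), and the EZH2 KO clones overlapped the controls. IL4R, in contrast to STAG2 KO, held 29.5, 32.2 and 41.7 CPM in EZH2 KO and 24.4, 27.9 and 29.5 CPM in SUZ12 KO, overlapping the controls (log2 fold change 0.02 and -0.32; edgeR adjusted p = 0.970 and 0.485).

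**Figure D3:**
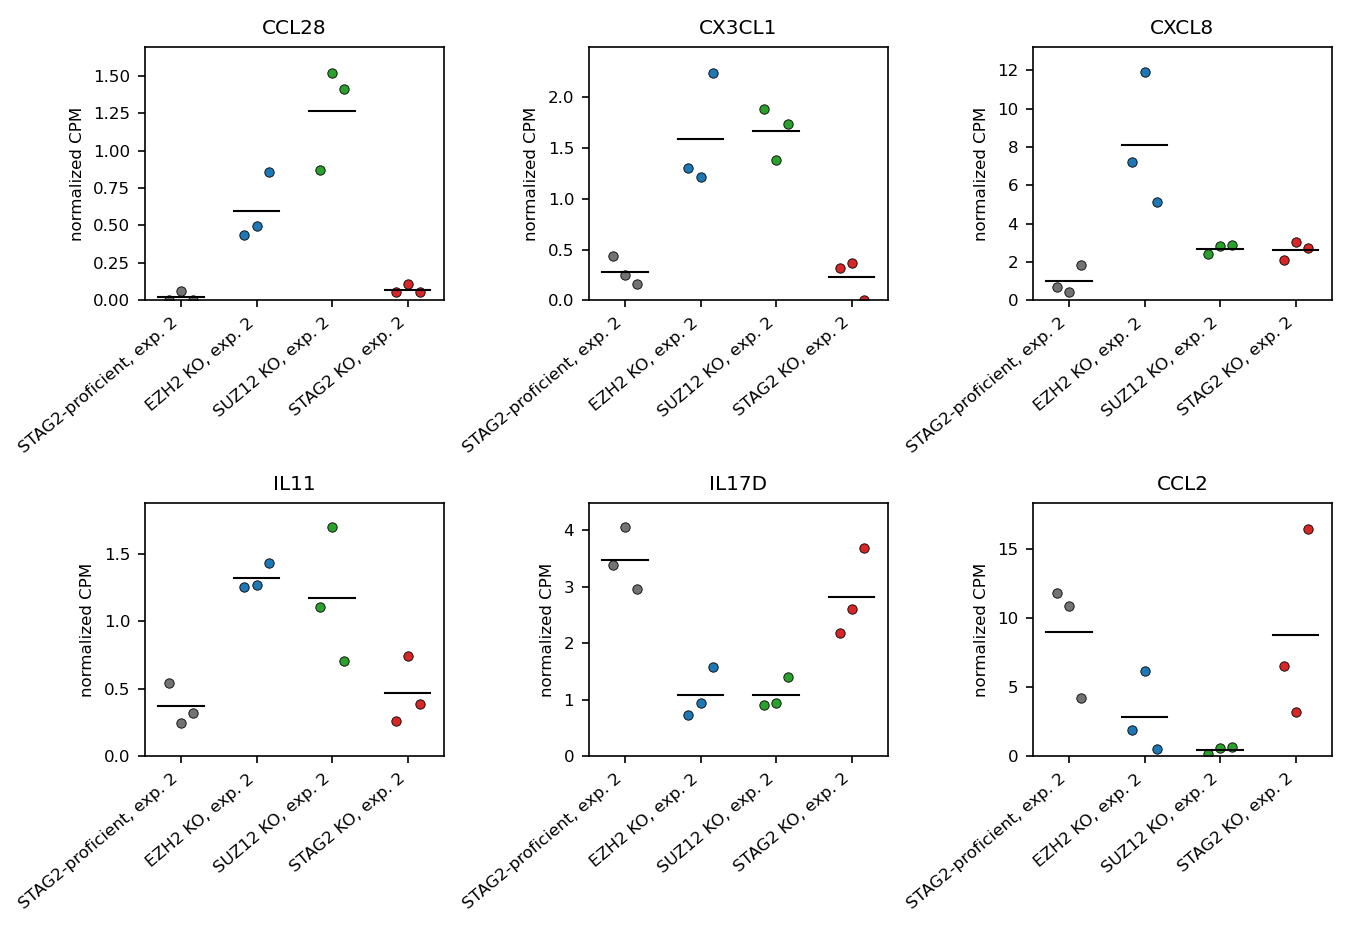
Level (CPM) in each experiment 2 library for the genes called in EZH2 KO or SUZ12 KO. Each point is 1 library and each bar a group mean. CCL28, CX3CL1 and IL11 lie above the 3 controls in all 6 KO clones, IL17D lies below them in all 6, and CCL2 lies below them in the 3 SUZ12 KO clones, at 0.145 to 0.650 CPM.

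Several genes missed the threshold with all libraries in the fit, some with a wide spread between clones. IL33 stood at 0.0545, 0 and 0 CPM in the controls, at 1.74, 0.387 and 1.10 CPM in EZH2 KO and at 1.54, 1.30 and 2.38 CPM in SUZ12 KO. The KO clones did not overlap the controls, and the fitted fold changes were 5.44 (edgeR adjusted p = 0.0946) and 6.13 (adjusted p = 0.05001) on the log2 scale. STAG2 KO clone 5, in the same fit, held 5.90 CPM of IL33. Without that clone edgeR called IL33 in both KO groups, beside 25.1% of all genes in EZH2 KO and 31.1% in SUZ12 KO. IL33 was also called in both without STAG2 KO clone 3 and by DESeq2, and in SUZ12 KO with RLE scaling or no filter. IL21R ranged from 0.811 to 18.3 CPM in EZH2 KO and from 0.704 to 20.2 CPM in SUZ12 KO, against 0.269 to 0.492 CPM in the controls (edgeR adjusted p = 0.109 and 0.0815). Without STAG2 KO clone 5 IL21R too was called by edgeR in both KO groups. It begins 37395 bases after the end of IL4R on the same strand, with 0 coding genes between. Unlike IL4R it overlapped between the groups in STAG2 KO (log2 fold change 0.22, edgeR adjusted p = 0.956). CXCL16 stood at 1.80, 0.80 and 1.67 CPM in the controls. It stood at 5.21, 5.48 and 5.54 CPM in EZH2 KO and at 5.74, 8.09 and 2.71 CPM in SUZ12 KO, without overlap. The log2 fold changes of 1.94 and 1.97 did not pass (edgeR adjusted p = 0.280 and 0.251). Without STAG2 KO clone 5 CXCL16 was called in both (edgeR adjusted p = 0.00992 and 0.00703). IL10 was at 0 in the 3 controls and above 0 in all 6 KO clones, at least 2.02-fold higher in EZH2 KO and at least 1.91-fold higher in SUZ12 KO against the floor of 3 counts per library. Without EZH2 KO clone 3 the first bound was 1.1-fold. The summed leukocyte markers moved with these groups, at 2.88 to 6.40 CPM in the A673 controls, 20.2 to 26.3 in EZH2 KO and 13.8 to 24.1 in SUZ12 KO, and ITGAM alone averaged 14.1 CPM in EZH2 KO against 0.429 in the controls. Their part in the values above was not tested.

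In the direct comparison of EZH2 KO with SUZ12 KO, 0 of 21 genes were called by edgeR and 0 by DESeq2, and 3 had an unadjusted p under 0.05 (CXCL8, CCL2 and CXCL12). Over all genes, 0.00661% were called, a single gene, EZH2 itself. CCL2 was higher in EZH2 KO by 2.59 and CXCL12 lower by 1.85 on the log2 scale (edgeR adjusted p = 0.999 for both). The median difference over the 21 was 0.34 and over all genes 0.0076.

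**Figure D4:**
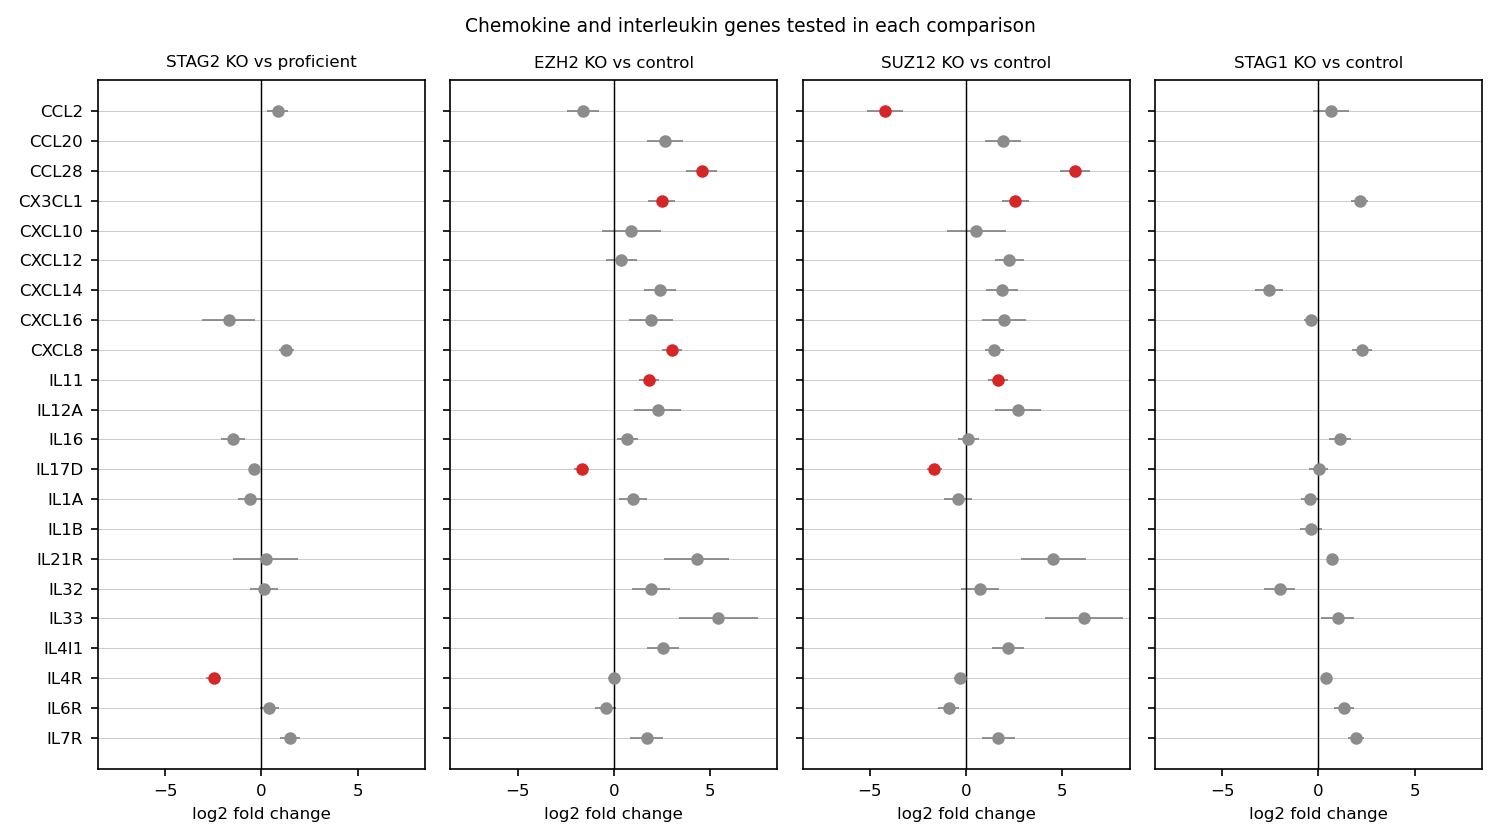
Log2 fold change of each tested gene in STAG2 KO, EZH2 KO, SUZ12 KO and STAG1 KO against its controls. Red points are calls at an adjusted p under 0.05 and grey points are not called. IL4R is called lower in STAG2 KO and uncalled in the other columns, and CCL28 is called higher in EZH2 KO and SUZ12 KO.

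The receptor chains IL7R, IL6R and IL21R were, after IL4R, CXCL16 and CCL2, the genes with the highest mean over the 22 A673 clone libraries, at 5.32, 2.76 and 4.51 CPM. IL7R stood at 2.34, 2.52 and 6.13 CPM in the controls of experiment 2, at 6.90, 2.93 and 25.7 CPM in EZH2 KO and at 7.24, 3.71 and 23.8 CPM in SUZ12 KO. Clone 3 of each KO was the highest, and both groups overlapped the controls (edgeR adjusted p = 0.209 and 0.197). IL21R showed the reverse order among the clones, at 4.68, 18.3 and 0.811 CPM in EZH2 KO clones 1, 2 and 3 and 6.56, 20.2 and 0.704 CPM in those of SUZ12 KO. In STAG1 KO it stood at 4.54, 4.69 and 5.79 CPM against 2.78 and 3.23 CPM, without overlap (edgeR adjusted p = 0.151).

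IL6R stood at 0.693, 1.10 and 4.16 CPM in the proficient and at 2.73 and 3.17 CPM in the STAG2 KO libraries of experiment 1. In experiment 2 it stood at 2.51, 1.78 and 6.08 CPM in the proficient and at 6.42, 2.07 and 4.57 CPM in the STAG2 KO clones. The parental line was the highest control in both, and the groups overlapped (log2 fold change 0.42, edgeR adjusted p = 0.650). It stood at 2.27, 2.16 and 3.25 CPM in EZH2 KO and at 0.917, 2.46 and 2.06 CPM in SUZ12 KO, within or under the range of the controls. In STAG1 KO it stood at 2.56, 4.64 and 2.54 CPM against 0.718 and 1.83 CPM (edgeR adjusted p = 0.184). In the knockdown, where it was too low to be tested, IL6R was at 10.5, 9.84 and 9.38 normalized reads in the mock and at 4.44, 7.42 and 4.83 in the siSTAG2 libraries, which did not overlap. It also had 161 counts without and 258 with STAG2 in A4573 (-0.62).

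The remaining genes were low in A673 throughout. Over the 22 clone libraries CCL20, a lymphocyte and dendritic cell chemokine, ranged from 0 to 1.71 CPM, CXCL12 from 0 to 2.32 and IL12A from 0 to 1.52. IL1A and IL1B ranged from 0.279 to 3.26 and from 0 to 1.15 CPM. CXCL3, CXCL11, IL23A and IL24 stayed below 1 CPM in each of the 22, at most 0.387, 0.904, 0.364 and 0.668. IL34, a ligand of the CSF1 receptor, and IL1R1, the signalling receptor of IL-1, reached 1.17 and 1.85 CPM. IL4I1 stood at 0.109, 0.0615 and 0.108 CPM in the controls of experiment 2, at 0.531, 0.719 and 0.477 CPM in EZH2 KO and at 0.386, 0.804 and 0.108 CPM in SUZ12 KO. The EZH2 KO clones were all above the controls, SUZ12 KO clone 3 was not, and neither comparison passed (edgeR adjusted p = 0.0532 and 0.0822).

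The other genes of these pathways were taken from fixed lists of receptor subunits and NF-kappaB components. Of the interleukin receptor subunits other than the genes above, 15 were tested in STAG2 KO. There 3 rose, beside 6.67% of all genes (IL27RA by 1.25, IL6ST by 0.81 and IL1RAP by 0.52 on the log2 scale) and LIFR, the receptor for leukemia inhibitory factor, fell by 1.03 (beside 5.76%). IL6ST is gp130, the signalling chain shared by the IL-6 family. In the knockdown, 2 of 10 rose (IL27RA by 0.81 and IL1RAP by 0.48) and 2 fell (IL11RA by 1.0 and LIFR by 0.89), beside 9.54% and 11.0% of all genes. In STAG1 KO, 3 of 18 rose (IL2RB by 4.05, IL13RA1 by 1.68 and IL1RAP by 0.56) and none fell, beside 2.77% and 2.50% of all genes. IL13RA1 pairs with IL4R to form the receptor for IL-13.

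In the PRC2 KO clones, most receptor subunits that changed rose. In EZH2 KO 11 of 23 rose, beside 12% of all genes, and LIFR fell by 0.59. In SUZ12 KO 13 of 23 rose, beside 14.7%, and none fell. These shares, and those of the chemokine receptors below, are a description only. A gene silent in the controls entered the test only if it was high in a KO group. The summed leukocyte markers were higher in the same clones (20.2 to 26.3 CPM in EZH2 KO and 13.8 to 24.1 in SUZ12 KO, against 2.88 to 6.40 in the controls), and their part in these counts was not tested. CSF2RB, the common beta chain of the IL-3, IL-5 and GM-CSF receptors, rose by 7.34 and 6.98, and IL2RB, the IL-2 receptor beta chain, by 5.37 and 5.62. IL12RB2 rose by 3.60 and 5.13. Of 5 chemokine receptors tested, 4 rose in EZH2 KO (ACKR3 by 5.30, CXCR4 by 4.56, CCR7 by 3.90 and CCR6 by 2.02) and 2 in SUZ12 KO (ACKR3 by 5.49 and CCR7 by 4.35), against the same 12% and 14.7% of all genes. ACKR3 and CXCR4 are both receptors of CXCL12. In STAG1 KO 1 of 3 was called, and CXCR4 fell by 4.47 on the log2 scale, beside 2.50% of all genes called lower.

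Of NF-kappaB pathway genes, 24 were tested in each KO comparison. In STAG2 KO, 0 rose and 1 fell, NFKBIZ by 0.83, beside 12.4% of all genes called. An unadjusted p under 0.05 by edgeR was found for 6 of the 24. In EZH2 KO, BCL3 rose by 1.90, NFKBIE by 1.03 and IRAK4 by 0.67, and NFKB1 fell by 0.69, a share of 4 in 24 beside 15.7% of all genes. In SUZ12 KO, BCL3 rose by 1.94 and NFKB1 fell by 1.65, beside 20.6% of all genes. In STAG1 KO, MAP3K7 rose by 0.54, beside 5.27% of all genes. In the knockdown, where 19 were tested, RELB (0.59), CHUK (0.56), NFKB1 (0.44) and IRAK1 (0.20) rose and BCL3 fell by 0.74, a share of 5 in 19 beside 20.5% of all genes.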

How the data were processed

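RNA was sequenced as non-directional, oligo-dT primed libraries. Per the labels, reads were handled with FastQC, TopHat2 (2.0.0), Bowtie (0.12.7), SAMtools (0.1.16) and DESeq2 on hg38. The authors deposited raw counts per gene for 26 libraries of clones. For the 6 knockdown libraries the authors deposited a signal, counts divided by size factors whose method was not given in the sources used here. Dividing by the smallest step gave whole reads for 100% of the values (within 0.01 read). The 92 spike-in rows summed to 0.

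Counts were tested with edgeR (4.0.16, R 4.3.3) by the quasi-likelihood test after TMM scaling and filterByExpr, with 1 fit each for experiments 1 and 2 (STAG2 KO, experiment as a term), experiment 2 (EZH2 KO and SUZ12 KO, all groups sharing the spread), experiment 3 (STAG1 KO) and experiments 1 to 3 (difference of effects). Knockdown values were tested with limma (3.58.1) on log2(value + 1), mean at least 10. P-values were adjusted by Benjamini-Hochberg over all genes tested, with a threshold of 0.05. Standard errors are the fold change over the root of F. For each isogenic pair the log2 CPM were subtracted (prior count 2, genes with 10 counts or more in the pair), with 2-fold as the limit. CPM use TMM library sizes. Intervals and floors (3 counts per library) cover counting error only, and depth sets their width. Sequence windows are RefSeq's, GRCh38.p14, and positions GENCODE's. Values per library were given for genes called in a comparison and for the 6 with the highest mean CPM over the A673 clones, though not for every comparison. Counts in the pair were given for those at least 4-fold apart in a pair. Up to 6 calls were named per pathway list. Values of other genes were chosen after they were seen. Alternatives were DESeq2 (1.42.0), RLE scaling, no filter, other controls and leaving out each library. The genes and the lists were chosen with earlier results of these data known. The fits were tested on simulated data, with 1 spread for all genes of a fit and changes planted only in well expressed genes. Recovery of changes in genes as low as most of these was not covered.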

Additional observations from a re-analysis of the deposited data

Results flagged for a closer look

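Dixon's criterion at 95% was applied to the 11 genes tested in STAG2 KO. The groups were the 6 STAG2-proficient and the 5 STAG2 KO libraries, each pooled over experiments 1 and 2. In 3 of the 22 groups 1 library lay far from the rest, and some such groups are met by chance alone. CXCL16 in STAG2 KO clone 5 of experiment 2 stood at 4.36 CPM, against 0 to 0.415 CPM in the other 4 STAG2 KO libraries (gap over range 0.905). IL21R in the same clone stood at 6.17 CPM, against 0 to 0.949 CPM in the other 4 (0.846). IL21R in the parental library of experiment 1 stood at 12.7 CPM, against 0.269 to 2.83 CPM in the other 5 STAG2-proficient libraries (0.794).

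The effect of STAG2 KO on IL4R differed from that of STAG1 KO by -2.93 on the log2 scale (SE 0.58, edgeR adjusted p = 0.00891). All 5 STAG2 KO libraries were below their controls. All 3 STAG1 KO libraries were above theirs, library 7 only just so (43.69 against 43.61 CPM in the Cas9 control). The call was lost when either control of experiment 3 was left out (edgeR adjusted p up to 0.0952).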

How the results depend on the processing

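The numbers below count called genes among the 30. By DESeq2 (16.6%, 19.5%, 24%, 13.1% and 9.86% of all genes) there were 7 in STAG2 KO (against 1), 8 in EZH2 KO (5), 10 in SUZ12 KO (5), 5 in STAG1 KO (0) and 2 for the difference of effects (1). With no filter on low counts there were 3 in STAG2 KO and 2 in STAG1 KO, and RLE scaling gave 1 in STAG1 KO. In STAG2 KO, experiment 1 alone gave 4 and the Cas9 clone as the only control gave 4. That control gave 3 in EZH2 KO. For siSTAG2 (2), a minimum mean of 1 gave 4 and of 50 gave 1. Leaving out single libraries gave 1 to 5 in STAG2 KO, 2 to 10 in EZH2 KO, 2 to 10 in SUZ12 KO, 0 to 0 for EZH2 KO against SUZ12 KO, 0 to 2 in STAG1 KO, 0 to 4 for the difference of effects and 1 to 3 for siSTAG2. The highest values in STAG2 KO, EZH2 KO, SUZ12 KO and the difference came without STAG2 KO clone 5, and the 0 for the difference without either control of experiment 3. IL4R was called in STAG2 KO in all 11 such fits (-2.86 to -2.23 log2) and all 8 other alternatives, and in siSTAG2 in all 6 (edgeR or limma adjusted p at most 0.0180). The sign turned for CXCL16 in STAG2 KO in experiment 2 alone (0.061). For IL4R in EZH2 KO it turned by DESeq2 (-0.0046), RLE (-0.00038), the Cas9 clone as the only control (-0.17) and single libraries left out (-0.17 to 0.15). For CXCL16 in EZH2 KO against SUZ12 KO it turned with a replicate block (0.082) and single libraries left out (-0.37 to 0.35). Same-numbered libraries did not deviate together in experiment 4 (correlations 0.026, 0.037 and 0.0040). Of EZH2 KO with SUZ12 KO, clones 2 and 3 did (0.39 and 0.35) and clone 1 did not (-0.14), so the numbers were not taken as pairs. The replicate block left 2 calls in siSTAG2 and 0 in EZH2 KO against SUZ12 KO. Among all genes, STAG2 KO called 1687 (2621 by DESeq2, 3663 in experiment 1 alone), EZH2 KO 2377 (1441 with the Cas9 clone as the only control), STAG1 KO 757 (1943 by DESeq2), the difference 898 (1541) and EZH2 KO against SUZ12 KO 1 (22 by DESeq2, 5 unfiltered). Summing the Cas9 clone libraries of experiment 1, an alternative chosen after seeing the data, left 1 in STAG2 KO. Leaving out single libraries from the lower bounds of CXCL10, CXCL14 and IL10 was also chosen after seeing the data. The cause of these changes was not tested. Most of these genes lay near or under 1 CPM, which limits what could be called.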
